A study of Saccharomyces cerevisiae with 7 samples.

Results

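Autophagy is the process by which a cell wraps part of its cytoplasm in a double membrane and delivers it to the vacuole for breakdown. In budding yeast, Saccharomyces cerevisiae, most of the genes it needs carry the name ATG. Transcript levels of these genes were compared between a wild-type strain and a strain that lacks HMT1. Hmt1 is the enzyme that makes most of the methylated arginine in the proteins of budding yeast. The members were the probe sets whose platform gene symbol is ATG followed by a number. There were 34 of them among the 5498 probe sets that carry 1 gene name (5449 genes), 1 probe set for each of 34 genes, and none carried a suffix for matches to several transcripts.

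The wild type was the haploid strain BY4741, of mating type a with the alleles his3∆1, leu2∆0, met15∆0 and ura3∆0, and the deletion strain was the same background with a KANMX4 cassette in place of HMT1. RNA of 4 wild-type and 3 deletion cultures, which the labels call biological replicates, was hybridised to 1 Affymetrix Yeast Genome 2.0 array each. The labels name rich, phosphate-replete and phosphate-depleted media but not which of them these cultures grew in, and whether the deletion strain was 1 clone is not given in the sources used here. All values are the authors' log2 expression values, normalised by RMA. A difference is the mean of the deletion strain minus the mean of the wild type, in log2 units.

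The autophagy machinery is usually divided by role. The core machinery forms the autophagosome. It holds the Atg1 kinase complex that starts the process, a phosphatidylinositol 3-kinase complex that marks the membrane, the Atg9 vesicles and their lipid transfer partners, and the enzymes that attach the ubiquitin-like proteins Atg8 and Atg12. Selective autophagy adds receptors that tie a cargo such as a mitochondrion or a peroxisome to Atg8, the scaffold Atg11, and membrane factors of the cytoplasm-to-vacuole targeting (Cvt) pathway, which carries enzymes to the vacuole in growing cells. By these roles 18 members were counted as core, 13 as selective and 3 as acting in the vacuole or elsewhere.

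HMT1 itself averaged 11.84 ± 0.22 (SD, n = 4) in wild-type cultures, against 4.77 ± 0.26 (SD, n = 3) without the gene. The mating type a marker genes had wild-type means of 11.2 to 13.2, and of the 4 measured alpha-specific genes MF(ALPHA)1 was at 4.08 and SAG1 at 9.01. Of 12 sporulation genes, markers of another cell type, HOP1 passed the limma test described below, 0.98 higher in the deletion strain (adjusted p = 0.0246). The wild-type arrays were not uniform: 5 reporter probe sets that carry no gene name were dark in wild-type replicates 1 and 3 (3.18 to 4.44) and bright in the remaining 5 arrays (6.16 to 12.6). The 6 mating type a markers were all lower in the deletion strain than in wild-type replicates 2 and 4 and all higher than in replicates 1 and 3. The median over the members and over the lists of other genes below is therefore also given against each wild-type pair.

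No ATG gene passed the test between the strains. At a limma adjusted p under 0.05, 0 of the 34 members were called, where 0.2% of all probe sets were (11 of 5498, HMT1 among them). At a limma unadjusted p under 0.05 there were 4 of the 34 members, ATG12, ATG22, ATG31 and ATG39. This is a larger share than the 6.64% of all probe sets (365), and the members were not tested as a set. An ordinary test without limma's moderation also called 0 members, with 2 at an unadjusted p under 0.05, beside 5.26% of all probe sets (289). The differences ran from -0.35 for ATG22 to 0.34 for ATG39, which correspond to 1.28-fold lower and 1.26-fold higher. For a bulk culture, fewer cells that express a gene and less RNA per cell cannot be told apart.

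The measured differences were small, though their median size was above that of all probe sets. The size of the difference was under 0.1 in 17 members and over 0.2 in 6. Its median was 0.10, beside 0.073 over all probe sets. Standard errors ran from 0.052 to 0.17. In 26 members the 95% interval of the difference, not adjusted for the number of genes, lay inside ±0.5, a 1.41-fold change either way. The same held for 4809 of all 5498 probe sets, a larger share. The intervals of the other 8 members reached beyond ±0.5, as far as -0.58 for ATG5 and 0.65 for ATG39.

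**Figure D1:**
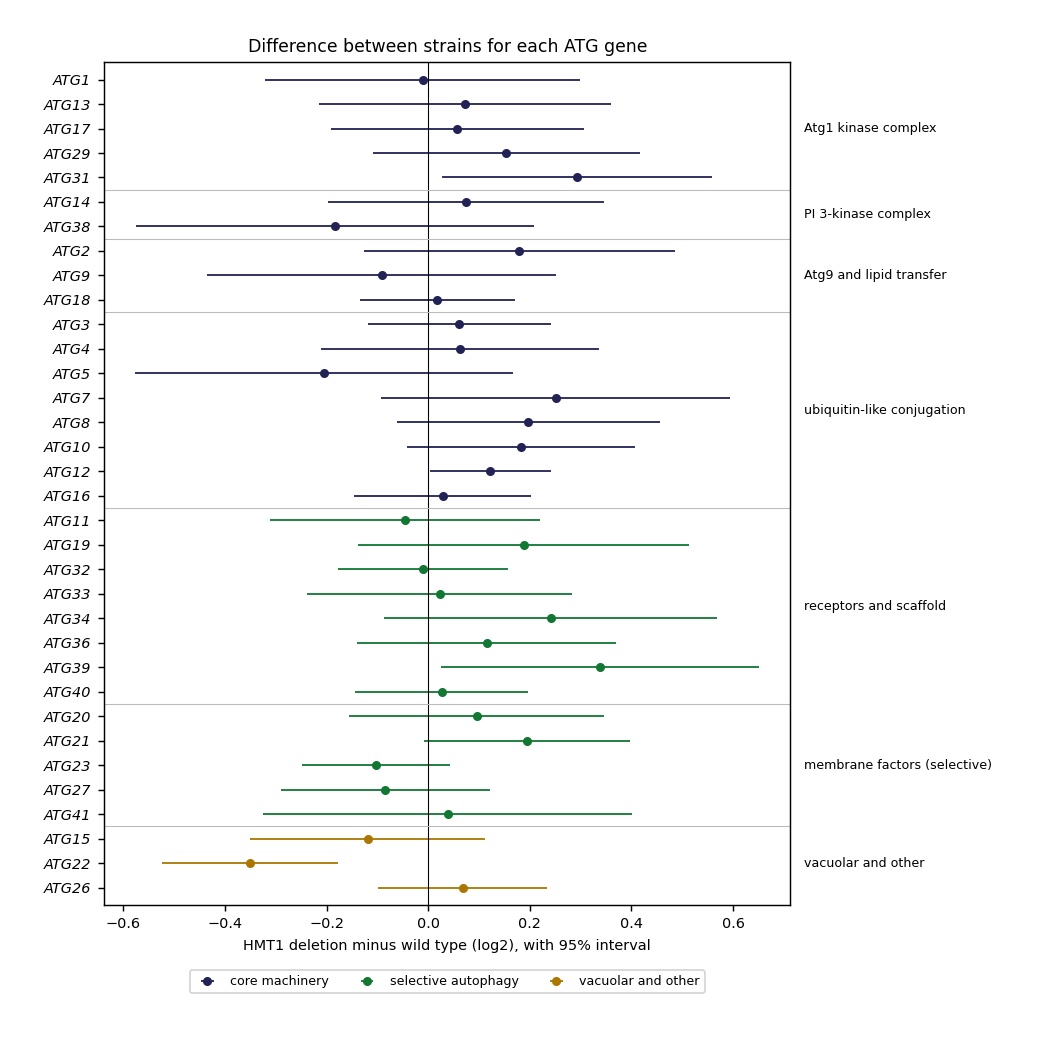
Difference between the strains (deletion minus wild type, log2) for the 34 ATG genes, with the 95% interval of the limma fit (4 and 3 arrays), grouped by role and coloured by class. The points lie between -0.35 and 0.34, and 4 intervals (ATG12, ATG22, ATG31 and ATG39) leave out 0.

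Of the 34 members, 24 were higher in the deletion strain and 10 lower (70.6% higher, beside 52.5% of all probe sets). Their median difference was 0.062, beside 0.0065 over all probe sets. The members' groups did not overlap in 2 genes, ATG22 below and ATG12 above the wild type (5.88%, beside 7.64% of all probe sets). This share is close to that of the array as a whole.

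ATG22 stood farthest from the wild type by its p-value. It encodes a permease of the vacuole membrane that returns amino acids from broken-down cargo to the cytoplasm. Its log2 expression was 10.19, 10.42, 10.15 and 10.24 in wild-type replicates 1 to 4 and 9.88, 9.90 and 9.92 in deletion replicates 1 to 3. The deletion arrays were all lower than the lowest wild-type array, and they lay close together. The difference was -0.35 (SE 0.074, limma unadjusted p = 0.0016, adjusted p = 0.281), which ranked 32 among the 5498 probe sets by p. It was -0.43 against wild-type replicates 2 and 4 and -0.27 against replicates 1 and 3. ATG22 passed in 1 of the alternative fits, that with array weights (difference -0.33, adjusted p = 0.0139), and over the other alternatives its adjusted p ran from 0.132 to 0.989.

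The other 2 members outside the core and selective classes were ATG15, the lipase that opens autophagic bodies in the vacuole, and ATG26, a sterol glucosyltransferase. ATG15 was at 8.54 ± 0.16 (SD, n = 4) and 8.42 ± 0.10 (SD, n = 3), a difference of -0.12 (SE 0.10, limma adjusted p = 0.840). ATG26, which is needed for peroxisome breakdown in the yeast Komagataella phaffii, was 0.068 higher (SE 0.072).

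In the Atg1 kinase complex, 4 of the 5 genes were higher in the deletion strain and none passed. ATG31, a subunit of the scaffold that Atg17, Atg29 and Atg31 form, read 8.46, 8.64, 8.96 and 8.72 in the wild type and 9.01, 9.06 and 8.89 in the deletion strain. Wild-type replicate 3 lay above deletion replicate 3, and the other 3 wild-type arrays lay below all deletion arrays. The difference was 0.29 (SE 0.11, limma unadjusted p = 0.035, adjusted p = 0.742), with 0.31 and 0.28 against the pair 2 and 4 and the pair 1 and 3. ATG29 was among the dimmest members, with 6.30, 6.11, 6.60 and 6.31 against 6.40, 6.59 and 6.46, and its groups overlapped (difference 0.15, SE 0.11). The kinase gene ATG1 differed by -0.011 (SE 0.13), ATG13, its regulatory subunit, by 0.071 (SE 0.12), and ATG17 by 0.057 (SE 0.11). The sign of ATG1 and of ATG13 depended on the wild-type arrays: they were at 0.13 and 0.23 against replicates 2 and 4 and at -0.16 and -0.089 against replicates 1 and 3.

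Of the phosphatidylinositol 3-kinase complex, 2 members carry an ATG symbol here. ATG38, a subunit that holds the complex together, read 8.97, 9.59, 9.04 and 8.97 in the wild type and 8.90, 9.18 and 8.80 in the deletion strain. Wild-type replicate 2 stood 0.56 above the next wild-type array. The difference of -0.18 (SE 0.17) came to -0.033 without that array. ATG14, the subunit that directs the complex to autophagy, was 0.074 higher (SE 0.12). The rest of the complex has other gene names: VPS30, once called ATG6, was 0.15 higher (SE 0.080), VPS34, the kinase, 0.14 higher (SE 0.064) and VPS15, its regulatory subunit, at -0.056 (SE 0.073). Neither VPS30 nor VPS34 passed (limma adjusted p = 0.803 and 0.742). They belong to a list of 7 measured genes with other names that act with the ATG genes, of which limma called 0, with 0 at an unadjusted p under 0.05. In that list 6 were higher, with a median of 0.13 (0.16 against wild-type replicates 2 and 4 and 0.022 against 1 and 3). The groups lay apart in 2 of the 7, VPS30 and VPS34, both higher. Beside this stand 7.64% of all probe sets in either direction and 3.15% in that direction. The differences of HSV2, VAC8 and CUE5 in the list were 0.14, 0.051 and 0.061.

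The genes for membrane supply showed no common direction. ATG2, a lipid transfer protein, was 0.18 higher (SE 0.13), ATG9, the membrane protein of the first vesicles, was at -0.092 (SE 0.15) and ATG18, which binds the marked membrane together with Atg2, at 0.017 (SE 0.066). ATG2 was at 0.33 against wild-type replicates 2 and 4 and at 0.025 against 1 and 3.

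The conjugation genes were measured in full, and 7 of the 8 were higher in the deletion strain. ATG12, the ubiquitin-like protein that is joined to Atg5, had the steadiest values of all members in the wild type, with 8.80, 8.83, 8.83 and 8.76. Its deletion arrays read 8.90, 8.92 and 8.97, all above the wild type. The difference of 0.12 (SE 0.052, limma unadjusted p = 0.046) did not pass (adjusted p = 0.742). It is a 1.09-fold difference.

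ATG8, named outside the rule as the best known autophagy gene, encodes the ubiquitin-like protein that is attached to the lipid of the growing membrane. It read 9.43, 9.85, 9.76 and 9.56 in the wild type and 9.74, 9.96 and 9.84 in the deletion strain. The groups overlapped, and the difference was 0.20 (SE 0.11, limma adjusted p = 0.803), with a 95% interval from -0.062 to 0.46. ATG7, the activating enzyme that serves both Atg8 and Atg12, read 8.37, 8.20, 8.83 and 8.32 against 8.80, 8.69 and 8.55. Its highest array was wild-type replicate 3, and the other 3 wild-type arrays lay below all deletion arrays (difference 0.25, SE 0.15, limma adjusted p = 0.803).

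ATG5, the partner of Atg12, was the conjugation gene lower in the deletion strain. It read 9.86, 10.52, 9.95 and 10.16 in the wild type and 10.00, 9.73 and 10.02 in the deletion strain. The difference of -0.21 (SE 0.16) was -0.42 against wild-type replicates 2 and 4 and 0.013 against replicates 1 and 3. The conjugating enzymes ATG3 and ATG10 were 0.061 (SE 0.077) and 0.18 (SE 0.097) higher, and ATG4, the protease that trims Atg8, 0.062 higher (SE 0.12). ATG16, which joins the Atg12-Atg5 conjugate into a larger complex, was the dimmest member, with 4.63, 4.45, 4.55 and 4.50 against 4.43, 4.65 and 4.61. The 17 control tag probe sets without a yeast target had means of 3.46 to 5.13, the highest from a single tag and the next at 4.20, and ATG16 lay within their range. Its difference was 0.028 (SE 0.075).

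**Figure D2:**
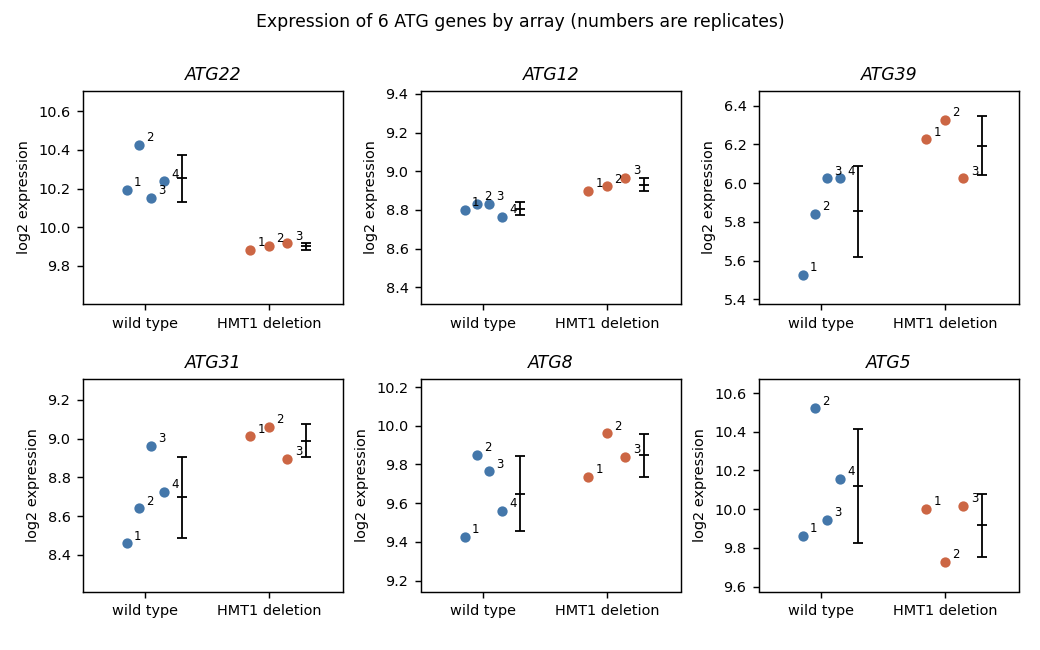
Log2 expression of ATG22, ATG12, ATG39, ATG31, ATG8 and ATG5 in each array; points are arrays numbered by replicate, and bars are the mean and SD (n = 4 wild type, n = 3 deletion), with axes of equal length that do not start at 0. The groups lie apart in ATG22 and ATG12 and meet or overlap in the other genes.

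Among the selective factors the receptor and scaffold genes came first, and 6 of the 8 were higher in the deletion strain. ATG39, a receptor for the breakdown of the nuclear envelope and endoplasmic reticulum, had the largest difference upward. It read 5.53, 5.84, 6.03 and 6.03 in the wild type and 6.23, 6.33 and 6.03 in the deletion strain. Deletion replicate 3 met the level of wild-type replicates 3 and 4, and the other 2 deletion arrays lay above every wild-type array. The difference was 0.34 (SE 0.14, limma unadjusted p = 0.037, adjusted p = 0.742), on a dim probe set where RMA compresses differences. ATG40, another receptor for the endoplasmic reticulum, was at 0.026 (SE 0.074).

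The receptors of the other cargoes differed by less. ATG34, a receptor that delivers alpha-mannosidase in starved cells, was 0.24 higher (SE 0.14), and its relative ATG19, the receptor of the Cvt pathway, 0.19 higher (SE 0.14). ATG36, the receptor for peroxisomes, was 0.11 higher (SE 0.11). Of the mitochondrial factors, ATG32, the receptor, was at -0.011 (SE 0.073) and ATG33 at 0.022 (SE 0.11). The 95% interval of ATG32 ran from -0.18 to 0.16. ATG11, the scaffold that gathers the machinery at a bound cargo, was at -0.045 (SE 0.11).

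The membrane factors placed here in the selective class split 3 higher to 2 lower. Of these, ATG23, ATG27 and ATG41 are also counted as core in an alternative below. ATG21, which binds the marked membrane and helps to place Atg8, was 0.19 higher (SE 0.087, limma unadjusted p = 0.058), and ATG20, a sorting nexin, 0.096 higher (SE 0.11). Its partner SNX4, once called ATG24, was 0.13 higher (SE 0.10). ATG23 and ATG27, which help Atg9 to travel, were at -0.10 (SE 0.063) and -0.085 (SE 0.089).

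ATG27 was the brightest member, with 11.80, 12.13, 11.82 and 11.81 in the wild type and 11.81, 11.80 and 11.80 in the deletion strain. Apart from wild-type replicate 2, its arrays differed by less than 0.1, and without that array the difference was -0.0060. ATG41, which binds Atg9, read 10.08, 9.87, 10.04 and 9.43 against 9.79, 10.03 and 9.85. Wild-type replicate 4 was its lowest array, and the difference moved from 0.038 (SE 0.16) to -0.10 without it.

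Core and selective genes did not separate from each other. The core median was 0.067, with 14 of 18 higher, and the selective median 0.038, with 9 of 13 higher. The core median lay 0.029 above the selective one. In single arrays of a strain, the core median deviation minus the selective one had an SD of 0.045. This SD is not the standard error of the gap of 0.029. That gap turned to -0.0082 when means replaced medians and to -0.044 when ATG23, ATG27 and ATG41 were counted as core. Each class held 1 or more genes on either side of 0, and neither held a gene past the test.

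In 26 of the 34 members the standard deviation of the wild-type arrays was larger than the difference between the strains. The wild-type SD was 0.033 for ATG12, and the widest were 0.30 for ATG38, 0.30 for ATG41 and 0.29 for ATG5. The median wild-type SD was 0.19 over the members and 0.13 over all probe sets, and the median deletion SD 0.10 and 0.071. The wild type was the more variable group in 27 of the 34 members (79.4%, beside 76.1% of all probe sets). Of the members, 19 had a mean below 8.82, the 25th percentile of all probe sets in the table. The part of brightness in these spreads was not tested.

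**Figure D3:**
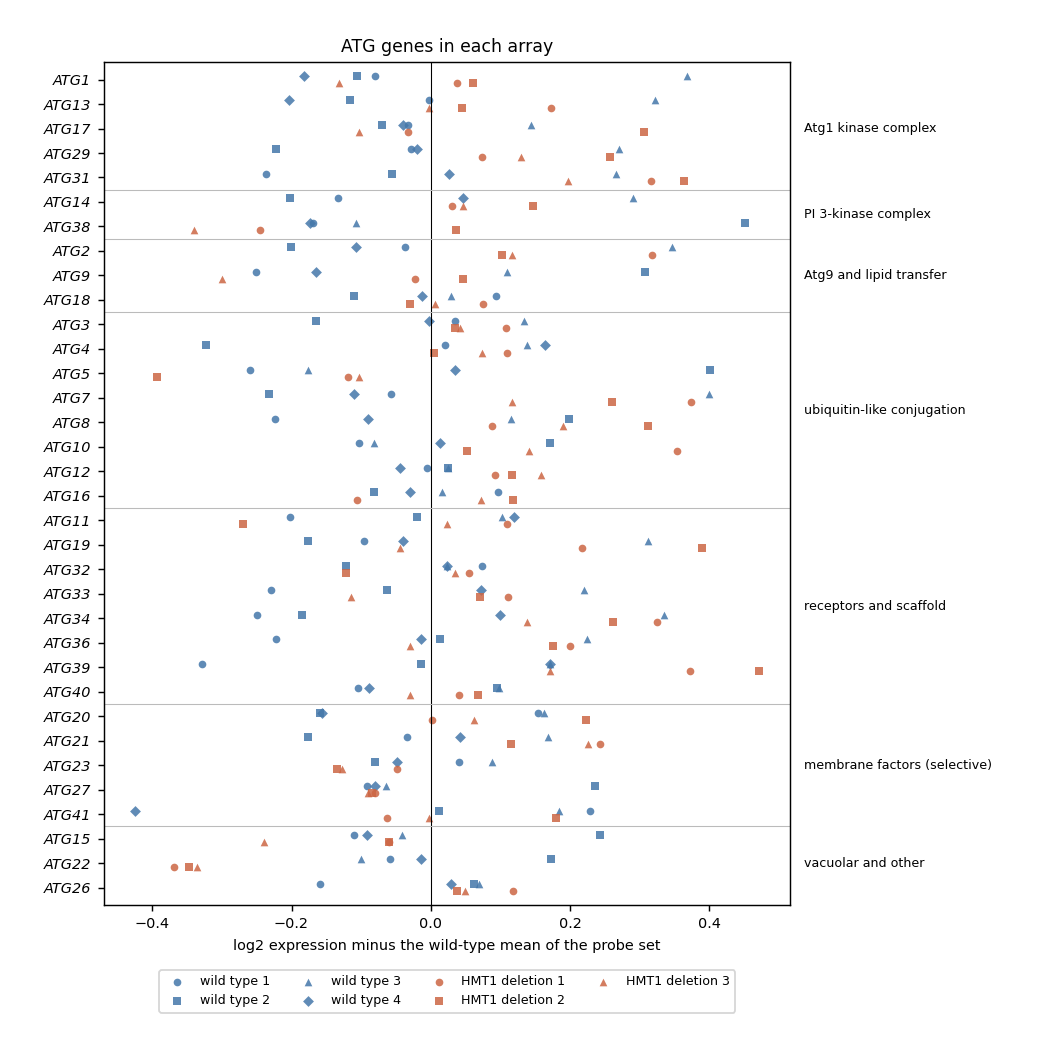
Log2 expression of each ATG gene in each of the 7 arrays, minus the wild-type mean of its probe set, by role; blue marks are wild-type and orange marks deletion arrays, with the marker shape giving the replicate. The blue triangles (wild-type replicate 3) lie to the right of 0 in 28 of 34 genes, and the orange points of ATG22 all lie to the left.

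Among the 4 wild-type arrays, replicate 3 stood highest in most members. It was above the wild-type mean in 28 of 34 ATG genes and was the highest of the 4, or tied for it, in 20 of them, among them ATG1, ATG2, ATG7, ATG13, ATG29 and ATG34. ATG22 was the 1 gene in which it was the lowest. The median deviation of the members from their wild-type mean was 0.14 in replicate 3, -0.086 in replicate 1, -0.067 in replicate 2 and -0.025 in replicate 4, beside 0.017, 0.0034, -0.033 and -0.0073 over all probe sets. In deletion replicates 1, 2 and 3 it was 0.081, 0.069 and 0.029, inside the range of the wild-type arrays. Without wild-type replicate 3 the members' median difference was 0.11, with 0 past the test. In that limma fit 9 of 34 were at an unadjusted p under 0.05, a larger share than the 12.7% of all probe sets (700).

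**Figure D4:**
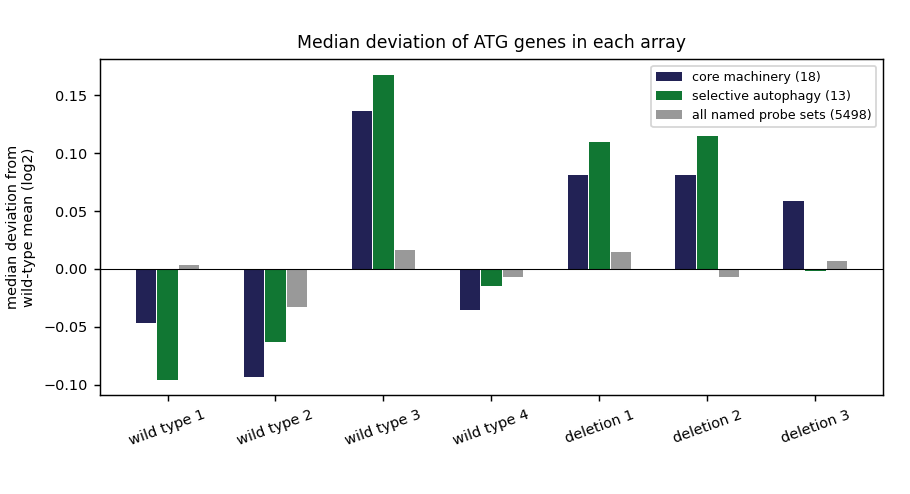
Median deviation from the wild-type mean (log2) in each array for the 18 core genes, the 13 selective genes and all 5498 named probe sets. The bars of wild-type replicate 3 are the highest for both classes, above those of all deletion arrays.

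The members' differences depended on the wild-type pair used as reference, as did those of all probe sets. Against wild-type replicates 2 and 4 the median difference was 0.12, with 26 of 34 higher, and against replicates 1 and 3 it was 0.0031, with 18 of 34 higher. Over all probe sets the medians were 0.024 and -0.0095, and 56.9% and 45.4% were higher. The 2 comparisons share the deletion arrays. In 12 members, 8 core and 4 selective, the sign differed between the pairs (35.3%, beside 39.5% of all probe sets). ATG22, ATG12, ATG31 and ATG39 kept their direction against both, and no member passed against either pair (smallest limma adjusted p = 0.132 and 0.262, both for ATG22). At a limma unadjusted p under 0.05 there were 10 of 34 members against replicates 2 and 4, beside 16.3% of all probe sets (895). Against replicates 1 and 3 there were 3 of 34, beside 6.6% (363). The members' share was the larger against replicates 2 and 4 and close to that of all probe sets against replicates 1 and 3. Neither share was tested.

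**Figure D5:**
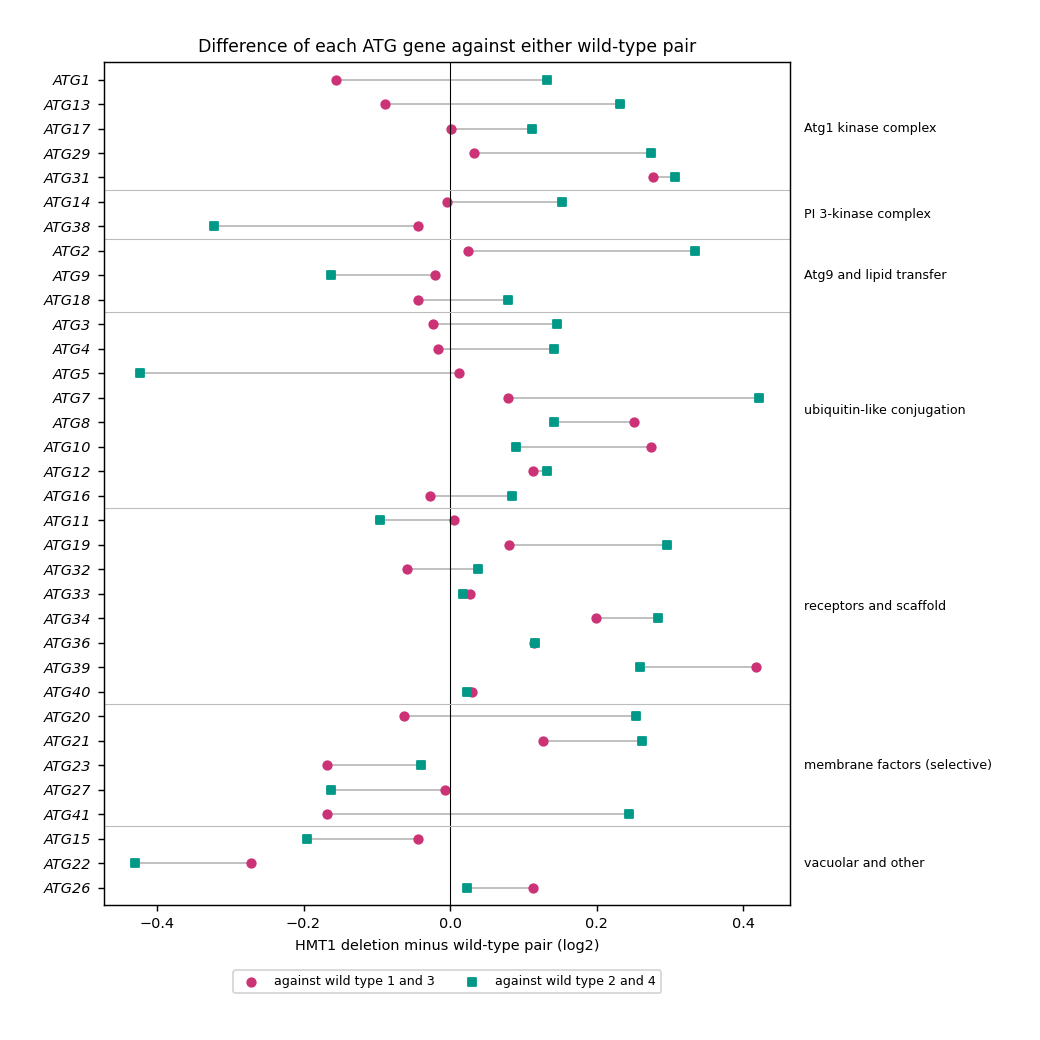
Difference of the deletion strain (log2) for each ATG gene against wild-type replicates 2 and 4 (squares) and against replicates 1 and 3 (circles), joined by a line. In 12 of the 34 genes the line crosses 0, and for ATG22 both marks lie below it, at -0.43 and -0.27.

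The genes around the ATG set were compared from lists by role. In each of the 5 lists that follow, limma called 0 genes at an adjusted p under 0.05. Values against wild-type replicates 2 and 4 come before those against replicates 1 and 3. Of 12 measured vacuolar hydrolases and their helpers, 6 were higher and 6 lower, with a median of 0.017, 0 at an unadjusted p under 0.05 and PBN1, which helps to make the protease Prb1, at 0.17 (SE 0.094). Against the wild-type pairs the median was 0.045 and 0.027. Of 18 genes for tethering and fusion at the vacuole and for the transport before it, 15 were higher, with a median of 0.047, 0 at an unadjusted p under 0.05 and VAM3, the syntaxin of the vacuole, at 0.15 (SE 0.078). Their median was 0.092 with 16 higher against the first pair and 0.0069 with 10 higher against the second. Of 21 kinases and nutrient sensors that control autophagy, 15 were higher, with a median of 0.044 and 1 at an unadjusted p under 0.05, TPK2, a catalytic subunit of protein kinase A, at 0.34 (SE 0.13, limma adjusted p = 0.719). The sign of this median turned with the pair: it was 0.088 with 17 higher against replicates 2 and 4 and -0.0075 with 8 higher against 1 and 3.

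The transcription factors had a median of 0.027, with 13 of 18 higher. The sign turned here as well, from 0.10 with 12 higher against wild-type replicates 2 and 4 to -0.019 with 7 higher against 1 and 3. GAT1, an activator of genes for poor nitrogen sources, was the 1 factor at an unadjusted p under 0.05. It read 9.68, 9.58, 9.79 and 9.66 in the wild type and 9.30, 9.41 and 9.33 in the deletion strain, with no overlap. The difference was -0.33 (SE 0.066, limma unadjusted p = 0.0011, adjusted p = 0.219). The median of the nitrogen response genes was -0.035; 11 of 19 were lower, and 2 had an unadjusted p under 0.05, in opposite directions. Its sign also turned, from 0.013 against wild-type replicates 2 and 4 to -0.028 against 1 and 3. MEP2, an ammonium permease, read 8.74, 8.84, 8.70 and 8.69 against 8.60, 8.42 and 8.39 and was at -0.27 (SE 0.073, limma adjusted p = 0.449). PUT2, an enzyme of proline breakdown, was 0.19 higher (SE 0.080, limma unadjusted p = 0.047, adjusted p = 0.742). The groups of MEP2, DAL7 and GDH2 lay apart, each lower in the deletion strain. This was 15.8% of the list, beside 7.64% of all probe sets in either direction and 4.49% in that direction. Groups also lay apart in 1 of the 18 transcription factors, GAT1 (5.56%), and in 0 of the hydrolases, fusion genes and kinases.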

How the data were processed

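Per the submitters' processing notes, the authors made the deposited log2 expression values by RMA with the R package affy 1.52.0. RMA makes the distribution of all arrays alike, which hides a change in total messenger RNA, and it compresses differences of dim and very bright probe sets. Nothing in the sources used here states the authors' test or filters.

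Names came from the platform annotation (5498 of 5900 probe sets; 12 symbols were brought up to date with RefSeq R64), and 402 probe sets with no name were left out. The build is not stated, so positions are not given. ATG42, ATG44 and ATG45 were not analysed here. The strains were compared by limma 3.58.1 (lmFit, eBayes; R 4.3.3), two-sided, with Benjamini-Hochberg adjustment over all 5498 probe sets and a threshold of 0.05; the SE beside a difference is the fit's standard error. The procedure was tested on simulated data. The brightness of a probe set depends on its probes, so levels do not order genes by abundance. With 4 and 3 arrays, precision is limited.

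The members, roles and lists were chosen with earlier results of these data known, so lists get counts and medians without a test. Every array is given for members whose groups lie apart, the 3 largest differences each way, and the 3 brightest, dimmest and most variable members; of each pathway list the gene with the smallest p is named. ATG8, CUE5, DAL7, GDH2, HSV2, PUT2, SNX4, VAC8, VPS15 and VPS30 were named outside this rule, after their values were seen. Also outside it, every array was given for ATG19 and ATG34, neighbours in gene order, and for GAT1 and MEP2. Alternatives were rescalings, filters, variance models, array weights, a replicate block, other feature sets, the wild-type pairs and leaving out each array. Plots used matplotlib 3.10.9 (Python 3.11.15).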

Additional observations from a re-analysis of the deposited data

Results flagged for a closer look

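In 2 ATG genes the value of wild-type replicate 2 was separated from those of its 3 fellow arrays by more than Dixon's 95% limit allows for 4 values. For ATG27 the gap to the next array was 0.916 of the range, and for ATG38 it was 0.895. HMT1 and the 34 members were looked at, 35 groups in all, and chance flags about 1 in 20 such groups. Replicate 2 was the highest wild-type array, or tied for it, in 9 members and the lowest in 14.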

How the results depend on the processing

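Over the 20 alternative fits the count of ATG genes past the test was 0, except that array weights gave 1 (ATG22, adjusted p = 0.0139). These weights ran from 0.232 for wild-type replicate 2 to 3.26 for wild-type replicate 4. The median ATG difference, 0.062 in the main fit, lay between 0.0031 (against wild-type replicates 1 and 3) and 0.12 (against 2 and 4). The members' median in single arrays of a strain had an SD of 0.080, which is not the standard error of this difference. The core minus selective gap was -0.054 with array weights, -0.028 against wild-type replicates 1 and 3, -0.044 with 3 genes counted as core, and -0.021 to 0.035 when an array was left out, negative without wild-type replicate 2. The number of probe sets called over the whole array was 11; it was 59 with array weights, 7 against wild-type replicates 1 and 3, 5 with the probe sets of a gene averaged, 4 without suffixed probe sets, and 1 with the ordinary test or at an adjusted p under 0.01. It was 1 to 9 when an array was left out (3 without wild-type replicate 3; 1 when wild-type replicate 4 or 1 of the deletion arrays was left out). Leaving out dim probe sets, HMT1 and 19 members among them, gave 0 in limma, with 240 at an unadjusted p under 0.05. Replicate numbers shared by the strains did not pair the arrays: same-numbered deviations from the strain means correlated at -0.035, 0.17 and -0.51. With the replicate block 1 probe set (HMT1) and 0 ATG genes passed, and the median ATG difference was 0.045.

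The sign held in 18 of the 34 genes under all these fits and turned in some fit in 16, none of which was called; the cause was not tested. Fits that changed only the variance model or the set of probe sets left the members' differences unchanged, so no sign could turn there. Against wild-type replicates 1 and 3, ATG3 was at -0.023, ATG4 at -0.017, ATG5 at 0.013, ATG11 at 0.0048, ATG13 at -0.089, ATG14 at -0.0039, ATG16 at -0.028, ATG18 at -0.044, ATG20 at -0.062 and ATG41 at -0.17. Against replicates 2 and 4, ATG1 was at 0.13 and ATG32 at 0.038. With array weights, ATG1 was at 0.084, ATG4 at -0.034, ATG9 at 0.012, ATG16 at -0.0065, ATG32 at 0.0034 and ATG33 at -0.015. With the replicate block, ATG40 was at -0.0030 and ATG41 at -0.10. Leaving out each array gave -0.072 to 0.11 for ATG1, -0.045 to 0.12 for ATG4, -0.18 to 0.012 for ATG9, -0.12 to 0.067 for ATG11, -0.017 to 0.095 for ATG16, -0.068 to 0.14 for ATG17, -0.019 to 0.049 for ATG18, -0.051 to 0.045 for ATG32, -0.054 to 0.096 for ATG33, -0.0082 to 0.059 for ATG40 and -0.10 to 0.11 for ATG41.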

Other observations

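ATG34 and ATG19, which encode related receptors, are neighbours in the R64 gene order, the 1 such pair among the members. ATG34 read 7.55, 7.62, 8.14 and 7.90 in the wild type and 8.13, 8.07 and 7.94 in the deletion strain. ATG19 read 9.78, 9.70, 10.18 and 9.83 in the wild type and 10.09, 10.26 and 9.83 in the deletion strain. Both had wild-type replicate 3 as their highest wild-type array and deletion replicate 3 as their lowest deletion array, and their groups overlapped.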
